A study of Mus musculus with 4 samples.

Results

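The monocyte and inflammatory CC chemokines described here are 9 genes that were picked by symbol from the 27998 genes listed for each library. No measured value entered that rule, but earlier results of these data were known when the genes were chosen. They are 6 ligands and 3 receptors. Ccl2, Ccl7 and Ccl12 encode ligands of CCR2, Ccl3, Ccl4 and Ccl9 encode inflammatory ligands, of which Ccl3 and Ccl9 act on CCR1, and Ccr2, Ccr1 and Cx3cr1 encode receptors. Every symbol had 1 row in the gene list, and no member was left out of any step.

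CD45+ cells (CD45, encoded by Ptprc, is the common surface protein of leukocytes) from the nasal mucosa of C57BL/6 mice aged 8 weeks had been profiled by droplet single-cell RNA-seq, with 1 library in each of 4 groups. The Vehicle group received vehicle and no allergen, and the Vehicle-OVA group received vehicle and ovalbumin (OVA), the allergen of this rhinitis model. The Ribavirin group received the antiviral nucleoside analogue ribavirin and no allergen, and the Ribavirin-OVA group received both. Per the study's methods, OVA mice were sensitised by intraperitoneal OVA with alum and then challenged through the nose. No transgene, deletion or other allele was named for any group, and the number of mice behind a library, the dosing of ribavirin and whether cells of several mice were pooled are not given in the sources used here. Since each group was 1 library, the variation from mouse to mouse is unknown, no test was made and no p-value is given. The intervals below are exact 95% intervals for counting error only.

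Chemokines are small secreted proteins that direct leukocyte migration through G protein-coupled receptors. CCR2 draws classical monocytes out of the bone marrow and into inflamed tissue, where many of them become macrophages, while CCR1 is carried by monocytes, macrophages, neutrophils and eosinophils among others. CX3CR1, the receptor of the membrane-bound ligand Cx3cl1, is known from patrolling monocytes, microglia and other resident macrophages, so the balance of Ccr2 against Cx3cr1 is often used to separate recruited from resident cells.

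The ligand genes lie in a cluster on mouse chromosome 11 and the receptor genes on chromosome 9. In GENCODE coordinates for GRCm38, Ccl2 (ENSMUSG00000035385) spans chr11:82035571-82037453 and Ccl7 (ENSMUSG00000035373) spans chr11:82045712-82047525, both on the plus strand. Ccl12 (ENSMUSG00000035352) follows at chr11:82101845-82103400 on the plus strand. Farther along, Ccl9 (ENSMUSG00000019122) spans chr11:83572919-83578636 and Ccl3 (ENSMUSG00000000982) spans chr11:83647844-83649355, both on the minus strand, and Ccl4 (ENSMUSG00000018930) spans chr11:83662584-83664683 on the plus strand. The receptor genes are Cx3cr1 (ENSMUSG00000052336) at chr9:119901616-120069879 and Ccr1 (ENSMUSG00000025804) at chr9:123962124-123968692, both on the minus strand, and Ccr2 (ENSMUSG00000049103) at chr9:124101950-124113557 on the plus strand.

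RefSeq's promoter table for GRCm38.p6 held 6 of the 9 genes, namely Ccl12, Ccl9, Ccl3, Ccr1, Ccr2 and Cx3cr1. The 250 bases before the start of Ccl12, Ccl9 and Ccl3, the ligands in that table, are shown because the levels of each differed between libraries in macrophage-like or neutrophil-like cells. Capitals mark matches on either strand to 4 motifs: kappa B (GGGNNTTCC), AP-1 (TGANTCA), C/EBP (TTGCNNAA) and the TATA box (TATAAA). The Ccl12 window is chr11:82101595-82101844 on the plus strand, the Ccl9 window is chr11:83578637-83578886 on the minus strand and the Ccl3 window is chr11:83649379-83649628 on the minus strand.
Ccl12: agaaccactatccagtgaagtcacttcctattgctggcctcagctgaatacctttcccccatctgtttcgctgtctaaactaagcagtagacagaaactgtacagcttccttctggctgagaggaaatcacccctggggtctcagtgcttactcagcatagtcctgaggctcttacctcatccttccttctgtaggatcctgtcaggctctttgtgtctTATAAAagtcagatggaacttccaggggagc
Ccl9: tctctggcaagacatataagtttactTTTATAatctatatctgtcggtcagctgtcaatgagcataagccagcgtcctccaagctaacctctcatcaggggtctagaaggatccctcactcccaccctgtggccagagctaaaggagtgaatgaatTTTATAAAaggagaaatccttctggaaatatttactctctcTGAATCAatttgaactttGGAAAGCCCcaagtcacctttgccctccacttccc
Ccl3: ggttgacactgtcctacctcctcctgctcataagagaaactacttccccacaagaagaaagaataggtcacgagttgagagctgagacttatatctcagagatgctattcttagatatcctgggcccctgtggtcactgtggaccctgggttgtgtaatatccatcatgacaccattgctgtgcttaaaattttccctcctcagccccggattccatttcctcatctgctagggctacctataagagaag

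Ccl12 held a TATA match at position -31 and none of the other motifs. Ccl9 held a kappa B match at -35, an AP-1 match at -53 and TATA matches at -224, -94 and -92, of which the last pair overlap on opposite strands. Ccl3 held none of the 4 motifs in this window, and neither did Ccr1, Ccr2 or Cx3cr1. Over all 32851 promoter windows of the same length, 4.98% held the kappa B letters, 6.75% the AP-1 letters, 9.56% the C/EBP letters and 12.4% the TATA letters, so that a match describes the letters only.

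The deposited counts held 10311 to 28277 cells and 91742940 to 171873110 unique molecular identifiers (UMIs, counted molecules) per library, with a median of 3389 to 4952 UMIs per cell. A Ptprc UMI was found in 81.3% to 89.3% of cells, and 5.18% to 14.3% of cells had at least 10% mitochondrial UMIs, the highest share in Ribavirin-OVA. Pairs of libraries shared 57 to 174 cell barcodes, which was 0.266% to 0.909% of a library. After filters 24132 Vehicle, 17142 Vehicle-OVA, 19474 Ribavirin and 8748 Ribavirin-OVA cells were kept. All values below are given in this order of libraries. They formed 38 clusters, of which 30 were named from marker genes in 14 classes written as "-like" because they were rebuilt here, and the 9 genes were left out of both the clustering and the markers. Levels are given as CPM, the UMIs of a gene scaled to a fixed total of UMIs of the same cells. A gene was counted as higher or lower at 2-fold on the scale of log2(CPM + 1), among genes with at least 50 UMIs.

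Over all cells of the vehicle pair, the CCR2 ligands were at lower levels and Ccl3, Ccl4 and Ccl9 at higher levels in the OVA library. The level of Ccl3 was 297 CPM in Vehicle, 2874 in Vehicle-OVA, 366 in Ribavirin and 284 in Ribavirin-OVA. That of Ccl12 was 149, 37.3, 69.4 and 27.1 CPM. Vehicle-OVA stood far above the other 3 libraries for Ccl3, and Vehicle stood above the others for Ccl12. With OVA in the vehicle pair 4 of 9 genes were higher (Ccl3, Ccl4, Ccl9 and Ccr1), where 7.24% of all 16662 genes tested were, and 3 were lower (Ccl2, Ccl12 and Cx3cr1), where 5.28% of all genes were. Under ribavirin 1 of 9 was higher (Ccl9), against 5.4% of all genes, and 1 was lower (Ccl12), against 1.13%. The median log2 ratio of all genes was -0.00 in the vehicle pair and 0.31 in the ribavirin pair, so ratios of the ribavirin pair lie against a shifted middle. Over all cells the share of cells of a class and the level per cell cannot be told apart, and neutrophil-like cells made up 15.1%, 64.1%, 21.6% and 25.9% of the cells.

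**Figure D1:**
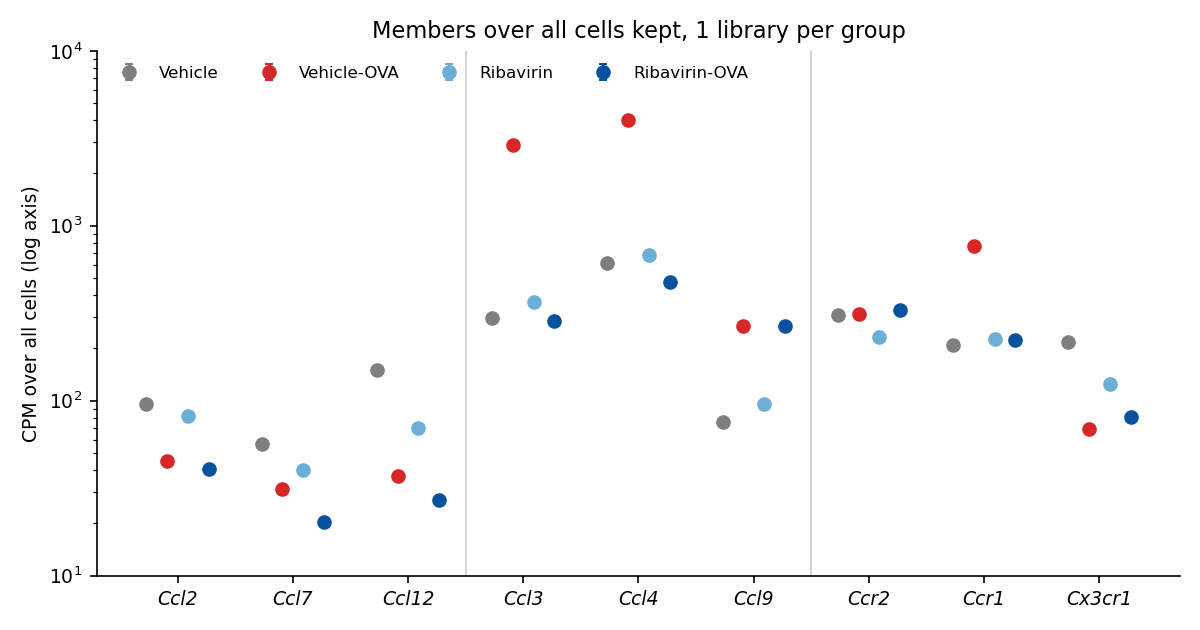
Level of each of the 9 genes over all cells, in CPM on a log axis, 1 point per library. Vehicle-OVA is the highest library for Ccl3 (2874 CPM), Ccl4 (4002 CPM) and Ccr1 (769 CPM), while Vehicle is the highest for Ccl2, Ccl7, Ccl12 and Cx3cr1.

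To ask which cells carried the messages, the UMIs of each gene were assigned to classes. Macrophage-like cells held 72.6%, 74.5%, 69.9% and 78.1% of all Ccl2 UMIs. They held 93.5%, 93.2%, 88.8% and 92.1% of Ccl7 and 93.2%, 95.5%, 87.3% and 95.3% of Ccl12. The CCR2 ligands therefore came mostly from macrophage-like cells in every library. Ccl3 UMIs lay in neutrophil-like cells to 27.4%, 90.3%, 44.2% and 66.5%, and Ccl4 UMIs to 15.6%, 88.0%, 28.7% and 54.4%. For Ccl9 the main class differed with OVA: monocyte-like cells held 51.5% of its UMIs in Vehicle and 53.2% in Ribavirin, but 7.54% and 10.3% in the OVA libraries, where macrophage-like cells held 78.4% and 74.7%.

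**Figure D2:**
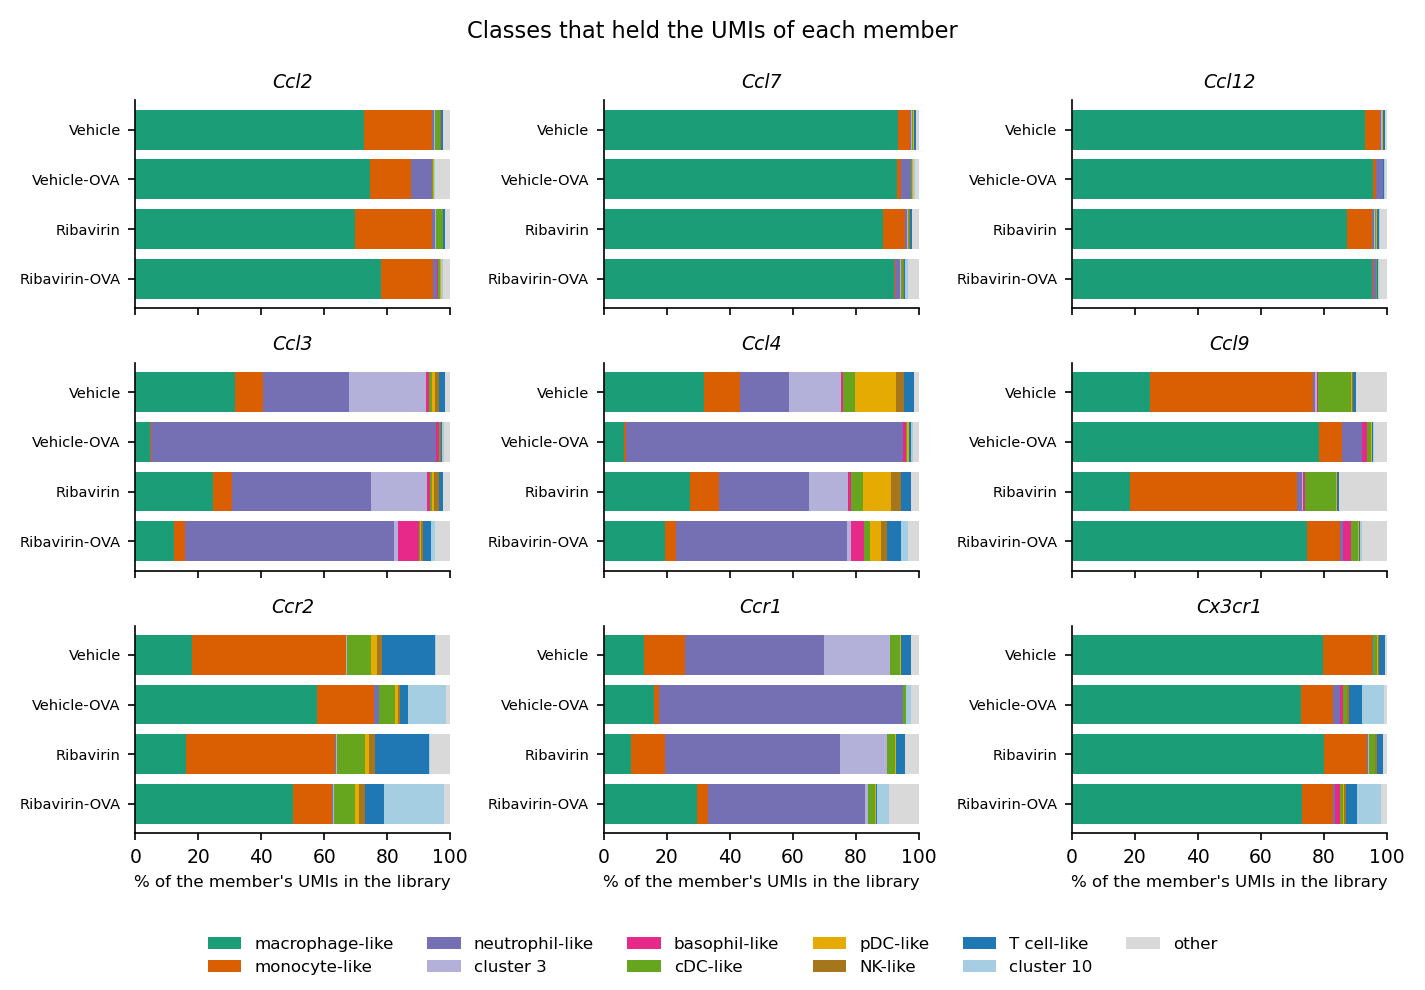
Share of each gene's UMIs, in percent, that fell in each class of cells, as 1 stacked bar per library. Macrophage-like cells hold at least 69.9% of Ccl2, Ccl7, Ccl12 and Cx3cr1 in every library, and neutrophil-like cells hold 90.3% of Ccl3 in Vehicle-OVA.

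Among the CCR2 ligands, Ccl2 (the main monocyte attractant) was highest by the mean of log2(CPM + 1) over libraries in macrophage-like cells at 346, 129, 365 and 143 CPM, followed by monocyte-like cells at 148, 173, 179 and 155 CPM. Macrophage-like cells were above monocyte-like cells beyond counting error in the libraries without OVA, below them in Vehicle-OVA and not separable from them in Ribavirin-OVA. Endothelial-like cells (39, 28, 114 and 66 cells) were at 613 and 253 CPM of Ccl2 in the vehicle libraries, where all of its UMIs lay in 4 and 5 cells, and at 14.1 and 15.3 CPM in the ribavirin libraries. Ccl7, which also acts on CCR1 and CCR3, was at 263, 111, 228 and 83.5 CPM in macrophage-like cells and at 15.5, 12.1, 25.5 and 2.52 CPM in monocyte-like cells. Ccl12, a CCR2 ligand of mice, was at 694, 135, 387 and 116 CPM in macrophage-like cells and at 50.5, 10.54, 50.5 and 2.80 CPM in monocyte-like cells. All 3 ligands were lower by 2-fold with OVA in macrophage-like cells of both pairs. Of all 12286 genes tested, 4.24% were lower by 2-fold in the vehicle pair and 2.81% in the ribavirin pair. Within macrophage-like cells the Ccl2 ratio with OVA was 0.371 (0.357 to 0.387) in the vehicle pair and 0.392 (0.376 to 0.410) in the ribavirin pair. The Ccl7 ratio was 0.423 (0.405 to 0.442) and 0.366 (0.345 to 0.387). Ccl12 differed more under vehicle, with 0.195 (0.188 to 0.202) and 0.299 (0.286 to 0.314).

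In macrophage-like cells (2993, 2362, 2273 and 1721 cells) 3 of 9 genes were higher with OVA in the vehicle pair and 4 were lower, where 9.46% and 4.24% of all genes tested were higher and lower. For the ribavirin pair 3 were higher and 6 were lower, against 7.54% and 2.81% of all genes. The genes higher in both pairs were Ccl9, Ccr2 and Ccr1. In the ribavirin pair Ccr2 and Ccr1 fell short of 2-fold at resolution 0.5 (log2 ratios of 0.74 and 0.94) and with classes from marker UMIs of single cells (0.94 and 0.83), while Ccl9 stayed past it (2.32 and 2.55). Ccl2, Ccl7, Ccl12 and Cx3cr1 were lower in both, and Ccl3 and Ccl4 were lower in the ribavirin pair. The median log2 ratio of all genes was 0.18 and 0.22, and it ran with transcript length: of 10 equal classes of length, in the vehicle pair, the shortest, which holds Ccl12, had a median of -0.42 and the longest a median of 0.36. The macrophage markers used for naming (12 of 12 found) summed to 59184, 20650, 56330 and 26502 CPM in these cells, lower in both OVA libraries. Their part in the result was not tested.

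The cells called macrophage-like fell mostly in different clusters with and without OVA. Cluster 4 (leading genes Vcam1, C1qb and Apoe) held 2358, 24, 1793 and 37 of them, and cluster 5 (Ccl24, Arg1, Slc7a2) held 29, 2121, 67 and 1444. Cluster 20 (Ccl8, Pf4, Igf1), with 241, 168, 158 and 198 cells, and cluster 21 (Crybb1, Nav3, Fcrls, with Sall1 and P2ry12), with 365, 49, 255 and 42 cells, were present in every library. In cluster 20 the Ccl12 level was 1146, 231, 434 and 214 CPM, a ratio with OVA of 0.202 (0.152 to 0.264) in the vehicle pair and 0.493 (0.373 to 0.645) in the ribavirin pair. Cluster 21 carried the highest Ccl12 level of the 4 clusters in each library, at 1702, 861, 768 and 540 CPM, and its ratios were 0.506 and 0.703. The Ccl12 level was thus lower with OVA within clusters 20 and 21, with ratios nearer 1 in cluster 21 than over the class. Between the clusters that replaced each other, Ccl12 was at 576 CPM in cluster 4 of Vehicle and at 110.3 CPM (106 to 115) in cluster 5 of Vehicle-OVA. Ccl2 was at 313, 383, 348 and 33.7 CPM in cluster 4 and at 124, 119, 158 and 146 CPM in cluster 5. Ccl7 was at 258, 238, 233 and 6.13 CPM in cluster 4 and at 11.2, 107, 65.2 and 88.8 CPM in cluster 5. Ccl12 was at 576, 473, 353 and 91.9 CPM in cluster 4 and at 371, 110.3, 94.99 and 99.5 CPM in cluster 5. Cluster 21 held Ccl2 at 684, 405, 645 and 244 CPM and Ccl7 at 349, 256, 260 and 48.5 CPM. Cluster 20 held Ccl2 at 107, 33.6, 49.6 and 46.2 CPM and Ccl7 at 49.7, 0, 62.0 and 28.9 CPM. Both genes were thus lower with OVA beyond counting error within cluster 21 in both pairs and within cluster 20 in the vehicle pair. Of clusters 4 and 5, with few cells in some libraries, they were so only within cluster 4 of the ribavirin pair. Ccl12 was lower in all but cluster 5 of that pair. In cluster 5 of Vehicle its 66 UMIs lay in 10.3% of 29 cells, whereas 19.5% of the cluster 5 cells of Vehicle-OVA held the gene.

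Not every macrophage-like cell held these ligands. After each cell was thinned to 1000 UMIs, 28.4%, 8.66%, 19.3% and 7.61% of macrophage-like cells held a Ccl12 UMI, where 102, 145, 0 and 117 shallower cells were left out. Unthinned, the shares were 54.2%, 20.7%, 46.2% and 23.6% at a median depth of 10012, 9317.5, 10367 and 8955 UMIs. In B cell-like cells, which should lack the gene, the thinned share was 0.645%, 0%, 0.314% and 0%, at a median of 3039, 3476.5, 3244 and 4929 UMIs. The 0 of 250 and 0 of 135 cells allow shares up to 1.2% and 2.22%. The macrophage-like shares lay above this background in every library. The UMIs were concentrated in few cells: the top 5% of macrophage-like cells held 70.9%, 89.6%, 73.9% and 89.1% of Ccl7 UMIs, 50.9%, 71.7%, 50.5% and 70.0% of Ccl2 UMIs and 45.3%, 70.7%, 49.1% and 64.5% of Ccl12 UMIs. Each was more concentrated in the OVA libraries.

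Ccl7 was found more often in cells with Ccl2 than in those without, and Ccl12 more often in cells with Ccl7. Among macrophage-like cells thinned to 1000 UMIs, Ccl7 was detected in 30.0%, 34.8%, 29.9% and 22.7% of those with a Ccl2 UMI, and in 6.93%, 3.16%, 5.06% and 2.82% of those without. Ccl12 was detected in 49.5%, 33.1%, 47.2% and 28% of those with a Ccl7 UMI, and in 25.8%, 7.25%, 16.4% and 6.61% of those without. Such comparisons were made over all pairs of genes examined, not only these ligands, in classes and libraries with at least 20 positive cells. The share with the second gene was higher in cells with the first in 37 of 53 comparisons. Every cell had the same number of UMIs after thinning, and cells of 1 library are not replicates.

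Ccl3 and Ccl4, which lie side by side and encode inflammatory chemokines, had higher levels in neutrophil-like than in macrophage-like or monocyte-like cells in every library, although macrophage-like cells still held 31.8% of Ccl3 UMIs in Vehicle and 24.6% in Ribavirin. In neutrophil-like cells (3642, 10995, 4200 and 2266 cells) Ccl3 was at 1390.0, 6744, 1941 and 2322 CPM and Ccl4 at 1638, 9147, 2339 and 3179 CPM. Vehicle-OVA was above the other libraries for both, while Ribavirin-OVA lay nearer to Ribavirin than to Vehicle-OVA. The ratio of Ccl3 with OVA was 4.85 (4.76 to 4.94) in the vehicle pair and 1.20 (1.17 to 1.22) in the ribavirin pair. For Ccl4 it was 5.58 (5.49 to 5.68) and 1.36 (1.34 to 1.38). Here 3 of 9 genes were higher and 1 was lower with OVA in the vehicle pair, where 6.45% and 8.91% of all 10489 genes tested were. In the ribavirin pair 1 was higher and 0 were lower, where 33.6% and 1.85% of all genes were and the median log2 ratio of all genes was 0.73. The gene lower in the vehicle pair was Ccl12 at 6.46, 2.24, 5.25 and 2.5 CPM, and the gene higher in both pairs was Ccl9 at 9.57, 42.5, 15.7 and 37.0 CPM. In the ribavirin pair its log2 ratio of 1.19 fell under 2-fold with a mitochondrial limit of 5% (0.93), a pseudocount of 10 CPM (0.87) and centring on all genes (0.46) or on genes of like transcript length (0.35). So 1 of 9 was a smaller share than that of all genes. The Ccl12 value rested on 56 UMIs in Vehicle and 79 in Vehicle-OVA, where B cell-like cells, which should lack the gene, were at 4.12 and 0 CPM.

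These levels differed between the clusters that make up the neutrophil-like class. Cluster 0 held 3300, 199, 4018 and 156 cells and was led by genes such as Cxcr2 and G0s2. Cluster 1, led by Mreg, Olr1 and Il1rn, held 159, 6499, 84 and 526 cells. Cluster 7 (Retnlg, Mmp8, Ly6g) held 30, 2886, 27 and 239 cells, and cluster 9 (Siglecf, Mmp9, Csf3r among its leading genes) held 153, 1411, 71 and 1345. Ccl3 was at 827, 1271, 1816 and 1471 CPM in cluster 0 and at 16360, 10088, 8647 and 7829 CPM in cluster 1. So cluster 1 carried more Ccl3 than cluster 0 in each library, also in those without OVA, and most of its cells came from Vehicle-OVA. Within cluster 1 the Ccl3 ratio with OVA was 0.617 in the vehicle pair and 0.905 in the ribavirin pair, and within cluster 0 it was 1.54 and 0.810. Within cluster 7 it was 2.48 and 0.484, with 30 and 27 cells in the libraries without OVA, and within cluster 9 it was 1.28 and 0.655. The class as a whole thus differed more between Vehicle and Vehicle-OVA than did any of its clusters 0, 1, 7 and 9.

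Detection followed the levels. The share of neutrophil-like cells with a Ccl3 UMI was 23.6%, 79.1%, 34.8% and 40.0% after thinning, and 30.2%, 89.5%, 44.1% and 51.6% before it, at a median depth of 2035, 2874, 2619.5 and 2774.5 UMIs. In Vehicle the top 5% of neutrophil-like cells held 67.3% of Ccl3 UMIs, and in Vehicle-OVA they held 26.5%. Fewer cells thus carried most of the message in Vehicle. Cells with Ccl3 held Ccl4 more often than other cells: Ccl4 was detected in 52.1%, 77.8%, 55.6% and 65.9% of neutrophil-like cells with a Ccl3 UMI and in 14.6%, 45.6%, 17% and 23.1% of those without.

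Cells other than neutrophil-like cells carried both genes at different proportions. The ratio of Ccl3 to Ccl4 UMIs was 0.848, 0.737, 0.830 and 0.730 in neutrophil-like cells. The macrophage-like values were 0.481, 0.511, 0.483 and 0.378. In plasmacytoid dendritic cell (pDC)-like cells the ratio was 0.0408, 0.260, 0.0417 and 0.0592, and in natural killer (NK)-like cells 0.225, 0.317, 0.257 and 0.155. Ccl4 was thus carried with little Ccl3 in the last pair of classes, where its level was 1637, 962, 1880.5 and 623 CPM in pDC-like and 1288, 836, 1680.0 and 848 CPM in NK-like cells. T cell-like cells held 100.02, 894, 146 and 465 CPM of Ccl4. Cluster 3, unnamed, led by Siglecf and Ltc4s and nearly confined to the libraries without OVA (3305, 47, 2187 and 56 cells), held 1069 CPM of Ccl3 in Vehicle and 1345 CPM in Ribavirin, and 24.4% and 17.8% of the Ccl3 UMIs of those libraries. Among whole classes, the highest levels of Ccl3 in the OVA libraries were in a cluster called basophil-like, with 34 cells in Vehicle-OVA at 12178 CPM and 48 cells in Ribavirin-OVA at 3399 CPM, although the neutrophil-like cluster 1 was higher in Ribavirin-OVA. It held basophil markers such as Mcpt8 and Cd200r3 together with the mast cell proteases Mcpt1, Mcpt2 and Cpa3, and with under 20 cells in the other libraries no level is given for them.

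The Ccl3 and Ccl4 found in lymphoid classes have to be read beside these levels in Vehicle-OVA. Whether free RNA or remaining doublets gave them was not tested. B cell-like cells held 19.8, 281, 14.3 and 13 CPM of Ccl3 and 21.4, 257, 46.6 and 23.2 CPM of Ccl4, and plasma cell-like cells held 18, 284, 26.7 and 27.3 CPM of Ccl3. The thinned share of B cell-like cells with a Ccl3 UMI was 2.26%, 21.2%, 0.314% and 0.741%. The neutrophil markers (11 of 12 found) summed to 463, 1539, 683 and 297 CPM in B cell-like cells and to 444, 1831, 647 and 613 CPM in macrophage-like cells, so both classes held more of them in Vehicle-OVA. In macrophage-like cells Ccl3 was at 470.1, 505, 576 and 159 CPM, with ratios of 1.07 (1.05 to 1.10) and 0.276 (0.265 to 0.287). Ccl4 was at 978, 988, 1192 and 419 CPM, with ratios of 1.01 (0.993 to 1.03) and 0.352 (0.343 to 0.361). The B cell-like level of Ccl3 was 4.21%, 55.6%, 2.48% and 8.17% of the macrophage-like level. With that level subtracted (an alternative chosen after seeing the data), macrophage-like Ccl3 was 450.3, 224, 562 and 146 CPM. The log2 ratio of Ccl3, macrophage-like, OVA, vehicle pair then was -1.0 and the log2 ratio of Ccl3, macrophage-like, OVA, ribavirin pair was -1.94. In neutrophil-like cells the B cell-like level was 1.42%, 4.16%, 0.736% and 0.558% of the class level.

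Ccl9, a CCR1 ligand known from mice and from myeloid cells, was the ligand with the largest ratio in macrophage-like cells. It was at 93.8, 798, 112 and 898 CPM there, with a ratio with OVA of 8.51 (8.18 to 8.86) in the vehicle pair and 8.00 (7.68 to 8.34) in the ribavirin pair. Both OVA libraries were above both libraries without OVA. The thinned share with a Ccl9 UMI was 8.02%, 39.2%, 8.05% and 42.0% there, against 0.323%, 0.8%, 1.57% and 0.741% of B cell-like cells. In cluster 20, which had cells in every library, Ccl9 was at 96.8, 731, 62.0 and 537 CPM, and its ratio was 7.56 (5.30 to 11) and 8.67 (5.87 to 13.2). In cluster 21 it was at 65.1, 58.8, 42.3 and 66.3 CPM. The ratio of the whole class was therefore also present within cluster 20, and was not within cluster 21, where it was 0.903 (0.618 to 1.29) and 1.57 (1.06 to 2.28). Cluster 5 held 826 CPM in Vehicle-OVA and 963 CPM in Ribavirin-OVA. Monocyte-like cells had 279, 593, 456 and 647 CPM, and the basophil-like cluster 1986 and 1173 CPM in the OVA libraries. Conventional dendritic cell-like cells held 96.7, 93.9, 130 and 138 CPM and epithelial-like cells 127, 134, 82.3 and 92.8 CPM, with no like difference.

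**Figure D3:**
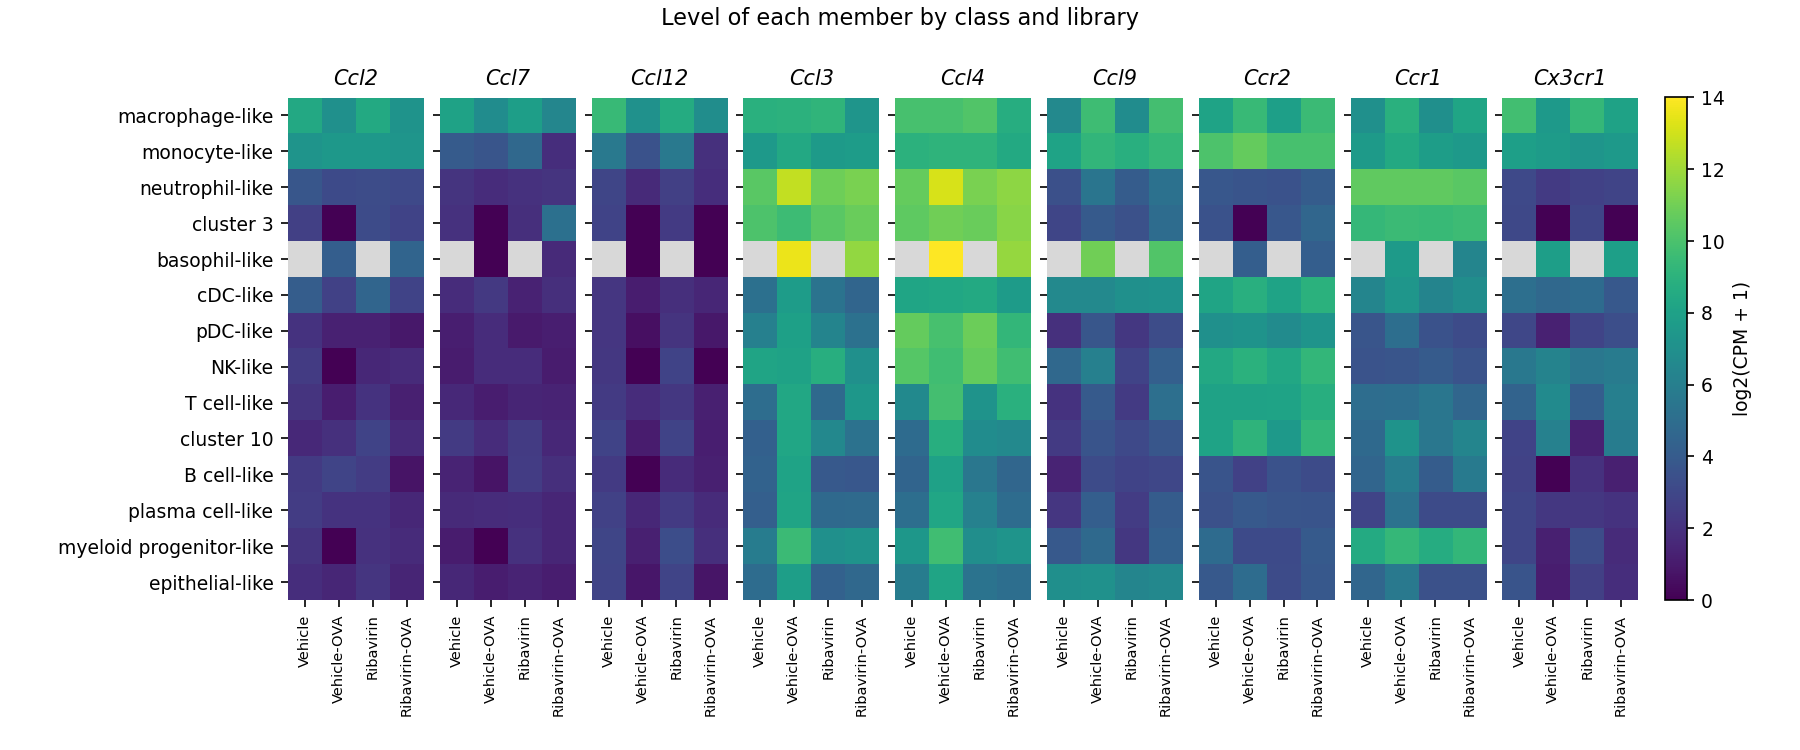
Level of each gene in each class and library as log2(CPM + 1), with classes in rows and libraries side by side, and grey where a library held under 20 cells of a class. Ccl7 and Ccl12 are high in macrophage-like cells, Ccr1 in neutrophil-like cells and Ccr2 in monocyte-like cells, while Ccl9 is high in monocyte-like cells in every library and in macrophage-like cells with OVA.

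Ccr2, the receptor of monocyte recruitment, was highest in monocyte-like cells at 1088, 1663, 976 and 965 CPM, above each of the other classes. It was next in cluster 16, unnamed and led by Foxp3, the regulatory T cell factor, at 591 CPM in Vehicle and 632 CPM in Ribavirin. NK-like cells were at 350.2, 496, 334 and 607 CPM and macrophage-like cells at 277, 689, 237 and 736 CPM, which did not keep their order in every library. Over all cells Ccr2 was at 309.5, 314, 229.9 and 328 CPM, with ratios with OVA of 1.01 (0.998 to 1.03) and 1.43 (1.40 to 1.45). Its location differed: monocyte-like cells held 48.9%, 18.1%, 47.3% and 12.6% of its UMIs and macrophage-like cells 17.9%, 57.8%, 16.1% and 49.9%. A further 12.1% and 19.2% lay in cluster 10 of the OVA libraries, unnamed and led by Gata3 and Il2ra.

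In macrophage-like cells the Ccr2 ratio with OVA was 2.49 (2.42 to 2.56) in the vehicle pair and 3.11 (3.02 to 3.21) in the ribavirin pair, and the thinned share of cells with a Ccr2 UMI was 16.4%, 37.4%, 16.3% and 39.4%. The OVA libraries were higher in both measures. Cluster 5, which held most macrophage-like cells of the OVA libraries, had 715 and 779 CPM there, and cluster 4, which held most of the others, had 309 and 263 CPM in Vehicle and Ribavirin. Within cluster 20 the level was 81.1, 198, 28.9 and 271 CPM, a ratio of 2.44 (1.54 to 3.93) and 9.38 (5.32 to 17.8). Cluster 21 was nearly without Ccr2 at 8.81, 15.9, 11.7 and 6.47 CPM, close to the B cell-like level of 11.5, 5.56, 10.52 and 8.19 CPM.

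Cx3cr1 ran the other way in the same cells. Macrophage-like cells held 858, 191, 636 and 264 CPM, the highest class by the mean of log2(CPM + 1) over libraries although monocyte-like cells (240, 202, 155 and 188 CPM) were at a like level in Vehicle-OVA, with ratios with OVA of 0.222 (0.215 to 0.229) and 0.416 (0.402 to 0.429). Both OVA libraries lay below both others. The thinned share of cells with a Cx3cr1 UMI was 52.1%, 11.5%, 40.3% and 16%, against at most 0.323% in B cell-like cells. Cluster 21 carried 1923, 1733, 1382 and 1696 CPM, with ratios of 0.901 and 1.23, both nearer 1 than the ratios of the class. Cluster 4 had 747 CPM in Vehicle and 573 CPM in Ribavirin, and cluster 5 had 142 CPM in Vehicle-OVA and 192 CPM in Ribavirin-OVA. The few cells of cluster 4 in the OVA libraries had 617 and 607 CPM, and the few cells of cluster 5 in the libraries without OVA had 405 and 283 CPM, so the order of these clusters was the same in all libraries. Cluster 20 had ratios of 0.766 (0.590 to 0.990) and 1.98 (1.60 to 2.46). The top 5% of macrophage-like cells held 17.5% and 19.6% of Cx3cr1 UMIs without OVA but 55.2% and 47.5% with it.

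At the level of single cells, macrophage-like cells with Ccr2 did not hold Cx3cr1 more often than those without Ccr2. Cx3cr1 was detected in 49.9%, 9.28%, 37.7% and 13% of those with a Ccr2 UMI and in 52.5%, 12.8%, 40.9% and 17.9% of those without. In cluster 12, a monocyte-like cluster well filled in every library (570, 298, 693 and 334 cells), 8.32%, 7.24%, 4.47% and 6.31% of thinned cells held both, 40.9%, 57.9%, 42.4% and 33.6% held only Ccr2, and 11.3%, 9.66%, 9.81% and 18% only Cx3cr1. A further 39.5%, 25.2%, 43.3% and 42.0% held neither. Cells with only Ccr2 thus outnumbered those with only Cx3cr1 in each library.

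Ccr1, the receptor of Ccl3 and Ccl9, was highest in neutrophil-like cells at 1561, 1546, 1508 and 1369 CPM. These levels were close to each other, with ratios with OVA of 0.990 (0.972 to 1.01) and 0.908 (0.885 to 0.930), and 73.5%, 66.7%, 72.0% and 64.0% of thinned neutrophil-like cells held a UMI. Over all cells Ccr1 was at 207, 769, 226 and 222 CPM, a ratio of 3.72 (3.67 to 3.77) in the vehicle pair, where neutrophil-like cells were 15.1% and 64.1% of cells. Macrophage-like cells differed at the level of the class, with 131, 470.1, 125 and 295 CPM and ratios of 3.58 (3.45 to 3.71) and 2.36 (2.25 to 2.47), where B cell-like cells were at 23.1, 59.7, 15.8 and 53.2 CPM. Of their clusters, cluster 4 was at 137, 180, 131 and 115 CPM and cluster 5 at 247, 487, 266 and 314 CPM. Cluster 20 was at 52.3, 146, 45.4 and 139 CPM and cluster 21 at 84.0, 111, 52.2 and 48.5 CPM. In the ribavirin pair the levels within clusters 4, 5 and 21 thus differed less than those of the class. Cluster 3 held 638, 737, 697 and 763 CPM and myeloid progenitor-like cells 369.8, 637, 406 and 611 CPM.

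**Figure D4:**
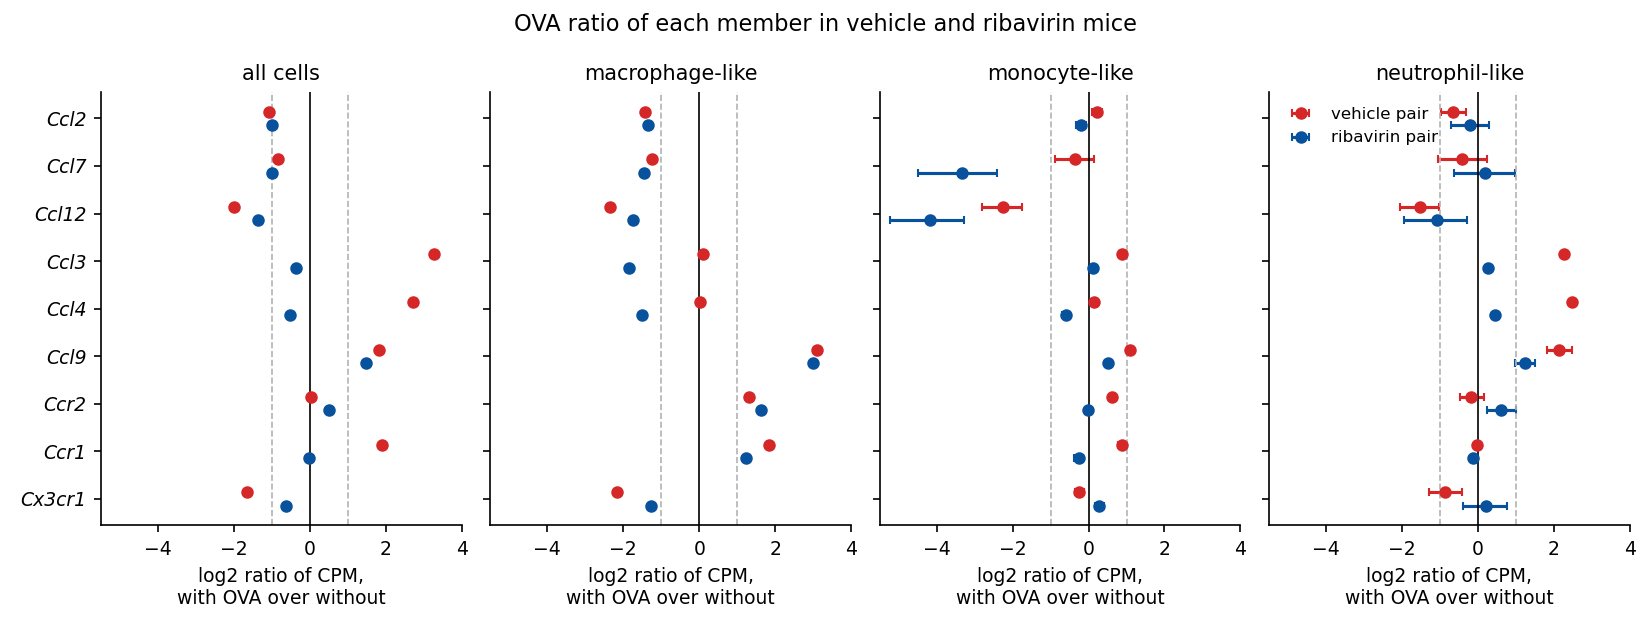
Log2 ratio of CPM with OVA over without OVA for each gene, in all cells and in macrophage-like, monocyte-like and neutrophil-like cells, for the vehicle and the ribavirin pair, with 95% counting intervals and dashed lines at 2-fold. In macrophage-like cells Ccl9 lies above the upper line in both pairs and Ccl12 below the lower line, and over all cells the Ccl3 points of the pairs lie on opposite sides of 0.

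There were 2550, 332, 2010 and 354 monocyte-like cells, in cluster 6 (1980, 34, 1317 and 20 cells, led by Ly6i and Ms4a4c) and cluster 12 (led by Vcan, Ace and F13a1). With OVA in the vehicle pair 1 of 9 genes was higher (Ccl9, 2.12, 2.01 to 2.24) and 1 lower (Ccl12, 0.209, 0.143 to 0.295), where 11.1% and 5.13% of all 10863 genes tested were. Under ribavirin 0 were higher and 2 lower (Ccl7, 0.0988, 0.0449 to 0.189, and Ccl12, 0.0554, 0.0265 to 0.102), where 11.3% and 5.22% of all genes were. With classes taken from marker UMIs of single cells these directions turned: the log2 ratio of Ccl12, monocyte-like, OVA, vehicle pair became 0.77, and in the ribavirin pair that of Ccl7 became 2.16 and that of Ccl12 became 0.72. The low values by cluster rest on 33 Ccl12 UMIs in Vehicle-OVA and on 10 Ccl12 and 9 Ccl7 UMIs in Ribavirin-OVA. The macrophage markers summed to 11569, 3813, 10130.4 and 3020.2 CPM in monocyte-like cells and the neutrophil markers to 892, 4870.1, 1621 and 3544 CPM, and their part in these results was not tested. Within cluster 12 Ccl12 was at 29.4, 10.8, 7.52 and 2.92 CPM, with ratios of 0.369 (0.237 to 0.557) and 0.388 (0.173 to 0.792), and the Ccl7 ratio in the ribavirin pair was 0.393 (0.144 to 0.925). The Ccl9 ratio within cluster 12 was 1.60 and 1.10. Ccr2 was at 981, 1722, 873 and 945 CPM there, a ratio of 1.76 and 1.08.

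Ribavirin libraries were also set against vehicle libraries. These pairs share libraries with the OVA pairs above, so their values stand side by side and are not separate evidence. Over all cells the median log2 ratio of all genes was -0.04 without OVA and 0.34 with OVA. Without OVA, 0 of 9 genes were higher over all cells and 1 was lower (Ccl12, 0.465, 0.454 to 0.476), where 5.07% and 0.072% of all genes were. The next lowest was Cx3cr1 at 0.578, followed by Ccl7 at 0.713 and Ccr2 at 0.743. With OVA, 0 were higher and 3 were lower, where 8.89% and 2.84% of all genes were. They were Ccl3 at 0.0989 (0.0976 to 0.100), Ccl4 at 0.119 (0.118 to 0.120) and Ccr1 at 0.289 (0.284 to 0.294), the genes with most of their UMIs in neutrophil-like cells of the OVA libraries, which were 64.1% of cells in Vehicle-OVA and 25.9% in Ribavirin-OVA. Within neutrophil-like cells the ratio was 0.344 (0.339 to 0.350) for Ccl3 and 0.348 (0.343 to 0.352) for Ccl4, where the median log2 ratio of all genes was 0.80. Cluster 1 held 6499 of these 10995 cells in Vehicle-OVA and 526 of 2266 in Ribavirin-OVA. In these libraries Ccl3 was at 10088 and 7829 CPM in cluster 1 and at 1122 and 867 CPM in cluster 9. It was at 1271 and 1471 CPM in cluster 0 and at 3766 and 1479 CPM in cluster 7. The part of the clusters in the class ratio was not tested. In macrophage-like cells Ccl12 was 0.558 and Cx3cr1 0.741 of the vehicle level without OVA. With OVA, Ccl3 was at 505 CPM in macrophage-like cells under vehicle and 159 CPM under ribavirin, where B cell-like cells were at 281 and 13 CPM. In monocyte-like cells with OVA the Ccr2 ratio was 0.580 (0.556 to 0.606), short of 2-fold. Ccl7 was there at 12.1 CPM in Vehicle-OVA and 2.52 CPM in Ribavirin-OVA, from 38 and 9 UMIs. Ccl12 was at 10.54 and 2.80 CPM, from 33 and 10 UMIs.

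Other genes of these pathways were counted by lists, over all cells, where 7.24% of all genes were higher and 5.28% lower in the vehicle pair, and 5.4% and 1.13% in the ribavirin pair, with median log2 ratios of -0.00 and 0.31. Of 10 other inflammatory ligands, receptors and decoys, 2 were higher over all cells with OVA in the vehicle pair (Ccl6, 4.23, and Ccrl2, 3.01) and 1 lower (Ccl5, 0.188), with a list median log2 ratio of 0.18. In the ribavirin pair 1 was higher (Ccl8, 3.40) and 2 lower (Ccl5, 0.237, and Ccrl2, 0.475), with a median of 0.34. Ccl6, another CCR1 ligand of mice, had OVA ratios of 5.18 and 6.87 among macrophage-like cells. Ccl8, which acts on CCR8, had a ratio of 0.758 in these cells in the vehicle pair and of 2.48 in the ribavirin pair. Of 16 genes of chemokine receptor signalling, such as G protein subunits, phosphoinositide 3-kinase and Dock2, 1 was higher in the vehicle pair (Gnai3, 2.22) and none in the ribavirin pair, with medians of 0.18 and 0.39.

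Genes of the NF-kB and inflammatory response were read beside Ccl3 and Ccl4, whose genes are known NF-kB targets. Of 14, 13 were higher and 0 lower over all cells in the vehicle pair, led by Il6 (7.16) and Nlrp3 (6.81), with a list median log2 ratio of 2.07 against -0.00 for all genes. The ribavirin pair had 0 higher and 3 lower, led by Il1a (0.463) and Nlrp3 (0.474), with a median of -0.11 against 0.31. Their summed level was 7305, 23298, 8101 and 6556 CPM, highest in Vehicle-OVA as for Ccl3. In neutrophil-like cells 8 were higher and 1 lower in the vehicle pair, and 0 and 1 in the ribavirin pair, where 6.45% and 8.91%, and 33.6% and 1.85%, of all genes were. The list medians there were 1.18 and -0.23, against -0.15 and 0.73 for all genes. Of 15 genes that tissue dissociation is known to raise, 4 were higher over all cells in the vehicle pair (led by Hspa1b, 20.9, and Hspa1a, 9.14) and 1 in the ribavirin pair (Hspa1b, 3.04), with 0 lower in either and medians of 0.18 and 0.23, where the shares and medians of all genes are those given above for all cells. They summed to 11962, 18627, 12851 and 14060 CPM over all cells, and to 28282, 27117, 28194 and 36035 CPM in neutrophil-like cells, where they were not highest in Vehicle-OVA. The part of dissociation in the levels of Ccl3 and Ccl4 was not tested.

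To find genes whose pattern was most like that of a member, Pearson's r of log2(CPM + 1) was taken over 63 sums of 1 class in 1 library, among 13095 genes. The sums share libraries and depth, and r is given as a description. Ccl12 was nearest to the complement genes C1qb (0.95), C1qc (0.90) and C1qa (0.90), and Ccl7 to C1qc (0.88), Ms4a7 (0.87) and C1qa (0.87). The nearest genes of Ccl3 were Ccl4 (0.88), Hcar2 (0.85) and Il1a (0.84), and those of Ccl4 were Ccl3, Il10rb (0.84) and Plek (0.82). Ccl9 was nearest to Cxcl16 (0.82), Tmem51 (0.81) and Clec4a3 (0.80). Among the receptors, Ccr1 was nearest to Lilrb4a (0.92), Cd300ld (0.92) and Msrb1 (0.92), and Cx3cr1 to Ms4a6b (0.80), Ms4a6c (0.77) and Ccr2 (0.74).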

How the data were processed

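The data were UMI counts per gene and cell barcode in 4 single-cell libraries, deposited by the authors as integer counts for called cells, with no normalization. Cell Ranger 5.0.0 and mm10 were named in the submitters' processing notes. Per the labels, the tissue was dissociated enzymatically (DNase I, collagenase I, hyaluronidase) and CD45+ cells were enriched on magnetic beads, while the series text names sorting by flow cytometry. All deposited columns were used (0 left out).

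Cells under 200 genes or 500 UMIs, or with 10% or more mitochondrial UMIs, were dropped, and doublets were marked by simulation and removed. In the order of libraries used in the report they were 6.20%, 2.03%, 3.96% and 0.783% of cells, against expected shares of 10.7%, 7.23%, 8.39% and 3.78%, so that doublets may remain. The libraries were clustered together (2000 variable genes chosen within libraries, 30 principal components, 15 neighbours, Leiden resolution 1.0, no batch correction). A cluster was named from at least 3 detected markers of its best class, with top genes taken among those in at least 25% of its cells. The choice of variable genes within libraries, the naming thresholds and a guard between ILC2 and T cell names were set after clusters had been seen, and 8 clusters stayed unnamed.

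Counts were summed per class and library and scaled to CPM. Sums have exact Poisson, shares exact Clopper-Pearson and ratios exact conditional binomial intervals. The floor for a count of 0 was 3 counts. Ratios were called at 2-fold with a pseudocount of 1 CPM, and a class needed 20 cells in a library. Shares of cells were taken after thinning to 1000 UMIs. The ratio procedure was tested on simulated data. The 9 genes, the lists and the markers were chosen with earlier results of these data known, and a class against the rest is no test. Genes of lists were named by the largest 2 ratios in each direction, and the genes most like a member by the highest 3 values of r. Transcript lengths from GENCODE matched 27722 of 27998 genes (99.0%). The tools were Python 3.11.15 with numpy 2.4.6, scipy 1.17.1, pandas 2.3.3, scikit-learn 1.9.0, scikit-image 0.26.0, leidenalg 0.10.2, igraph 0.11.9 and matplotlib 3.10.9. Alternatives changed the filters, doublet removal, resolution, class assignment, scaling, pseudocount and minimum counts. Subtraction of the B cell-like level, centring on genes of like transcript length and the addition of cluster 3 to the neutrophil-like class were chosen after seeing the data. The genes with the pattern most like that of Ccl2 and of Ccr2 are not reported here.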

Additional observations from a re-analysis of the deposited data

Results flagged for a closer look

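Over all cells the ratio of Ccl3 with OVA was 9.69 in the vehicle pair and 0.777 in the ribavirin pair, and that of Ccl4 was 6.51 and 0.699, so the pairs lay on opposite sides of 1. The difference between the pairs was not tested, since each pair has 1 library a side. Neutrophil-like cells were 15.1% of cells in Vehicle, 64.1% in Vehicle-OVA, 21.6% in Ribavirin and 25.9% in Ribavirin-OVA, and their part in the result over all cells was not tested.

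In macrophage-like cells the ratio of Ccl3 was 1.07 in the vehicle pair and 0.276 in the ribavirin pair, also on opposite sides of 1 and also not tested as a difference. B cell-like cells held Ccl3 at 55.6% of the macrophage-like level in Vehicle-OVA and at 2.48% to 8.17% of it in the other libraries. With that level subtracted, the log2 ratio of Ccl3, macrophage-like, OVA, vehicle pair was -1.0 and the log2 ratio of Ccl3, macrophage-like, OVA, ribavirin pair was -1.94, so the pairs then lay on the same side of 1.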

How the results depend on the processing

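No paired analysis was possible because each group had 1 library and no replicate numbers joined libraries, and no library could be left out. The counts of genes past 2-fold that moved by over 1.5 times were as follows, and the cause was not tested. Over all cells in the ribavirin pair with OVA, 1 gene was lower, and 2 were with a mitochondrial limit of 20%, with doublets kept or with ratios centred on genes of like transcript length, and 3 with ratios centred on the median of all genes. Without OVA, the 1 gene lower with ribavirin became 0 when single-cell CPM was averaged. In macrophage-like cells of the ribavirin pair the 3 higher genes became 1 at resolution 0.5 and 1 when classes were taken from marker UMIs of single cells. In monocyte-like cells of the vehicle pair the 1 higher gene became 2 with doublets kept, 5 with classes from marker UMIs, 2 with averaged single-cell CPM and 0 when centred on all genes, and the 1 lower gene became 0 with classes from marker UMIs and 2 with the B cell-like level subtracted. In the ribavirin pair, classes from marker UMIs gave 2 higher in place of 0 and 0 lower in place of 2. In neutrophil-like cells of the vehicle pair the 1 lower gene became 0 with at least 500 UMIs per gene, with a pseudocount of 10 CPM or when centred on genes of like length. In the ribavirin pair the 1 higher gene became 0 with a mitochondrial limit of 5%, a pseudocount of 10 CPM or either centring, and 2 with the B cell-like level subtracted, and the 0 lower became 1 with the limit of 5% or centring on all genes.

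The class with the highest level was the same as in the report for 5 of 9 genes with the mitochondrial limit of 5%, where an unnamed cluster led for Ccl2, Ccl7, Ccl12 and Cx3cr1. At resolution 0.5 an unnamed cluster led for Ccl2, Ccl12 and Cx3cr1. With classes from marker UMIs of single cells, 3 ratios turned their direction: the log2 ratio of Ccl12, monocyte-like, OVA, vehicle pair became 0.77, the log2 ratio of Ccl7, monocyte-like, OVA, ribavirin pair became 2.16 and the log2 ratio of Ccl12, monocyte-like, OVA, ribavirin pair became 0.72. Of the counts under alternatives, that of genes with the same leading class included, 224 stayed within 1.5 times and 26 did not. Of the ratios of single genes, 560 stayed within their counting interval, and 535 moved beyond it without turning a called direction.

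Depth limits the monocyte-like ratios of Ccl7 and Ccl12, which rest on 9 to 38 UMIs in the OVA libraries. Ccl3 and Ccl4 outside neutrophil-like cells in Vehicle-OVA are limited by their levels in B cell-like cells, whose source was not tested. With 1 library per group, differences between mice, between libraries and between treatments cannot be told apart.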

Other observations

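Lymphoid clusters also carried the receptors. Cluster 10, unnamed and led by Gata3, Il2ra and Pdcd1, held 147, 1154, 137 and 1385 cells (libraries in the order used above), and its Ccr2 level was 279, 552, 191 and 607 CPM. Ccr2 was higher in both OVA libraries. Its Cx3cr1 level was 6.16, 69.8, 1.48 and 57.7 CPM, from 3 and 1 UMIs in the libraries without OVA. T cell-like cells held Cx3cr1 at 20.6, 104, 17.2 and 64.5 CPM, again higher in both OVA libraries, with 5770, 442, 3685 and 584 cells. They fell in different clusters with and without OVA: cluster 2 (led by Il17a and Cd40lg) held 4082, 36, 2388 and 39 of them and cluster 8 (Gzmk, Klrc1) held 1341, 380, 833 and 507. Within cluster 8 Cx3cr1 was at 55.7, 119, 37.7 and 76.2 CPM, with ratios of 2.15 (1.82 to 2.53) and 2.02 (1.64 to 2.49). Cluster 2 was at 10.6 CPM in Vehicle and 12.5 CPM in Ribavirin, and had 2 and 0 Cx3cr1 UMIs in the OVA libraries.

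Myeloid progenitor-like cells held Ccl3 at 58.6, 747, 132 and 144 CPM with 122, 124, 272 and 280 cells, and Vehicle-OVA was above the other libraries. Their level there was above that of B cell-like cells (281 CPM).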
